A study of Mus musculus with 2 samples.

Results

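Immunoglobulin gene segments were measured in RNA of mouse leukemia stem cells. The segments were taken as every gene that GENCODE M21 types as an immunoglobulin constant (C), variable (V), diversity (D), joining (J) or LV gene, and 255 of the 268 such genes were rows of the gene tables, among 43346 rows with an Ensembl identifier. They comprised 10 C, 213 V, 19 D, 9 J and 4 LV genes. The other 13, namely Iglc1, Iglc3, Iglc4, 5 lambda J and 5 kappa V segments, were not analysed here.

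The RNA was described as polyadenylated and was sequenced with paired ends in 2 libraries, numbered as biological replicates 1 and 2 of a single group. Per the labels, the cells carried Friend virus, a retrovirus of mouse erythroleukemia, were positive for CD34, CD133, Kit and Sca1, and were taken from adult mice of both sexes, pooled, aged 10 to 12 weeks, whose strain must hold the sensitive Fv2 allele (Fv2s). No treatment, control or second genotype was part of the series, so levels and the spread between the libraries are described and nothing was tested between conditions. The labels list one donor record for both libraries and do not say whether the cells were separate preparations of separate animals, so part of the spread may be technical. Transcripts of the sort markers were scarce. Cd34 had 1.80 TPM in replicate 1 and 0.27 in replicate 2, Kit 1.81 and 1.06, Ly6a (Sca1) 1.45 and 2.15, and Prom1 (CD133) 0.06 and 0. TPM is the deposited level of a gene per length, as a share of all transcripts of the library.

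An antibody consists of paired heavy and light chains. In B cells, recombination joins a V, a D and a J segment of the heavy-chain locus, and a V and a J segment of a kappa or lambda locus, and splicing links the joined exon to the exons of a constant gene. The heavy constant gene sets the isotype: Ighm gives IgM, and later switching of the locus replaces it with an IgG, IgE or IgA gene. RNA from the unrearranged loci is also known, so a count on a segment does not by itself show a functional antibody.

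The D and J segments and the ends of the V segments are shown first, because their length and likeness bear on what the tables could measure. Each is the sense strand of a GENCODE M21 transcript on mm10, and capitals in the J segments mark the codons of the conserved Trp-Gly (TGGGG, heavy) or Phe-Gly (TTCGG, kappa) pair. The D segment Ighd4-1 lies at chr12:113430528-113430538 and Ighd1-1 at chr12:113482170-113482192, both on the minus strand. The J segment Ighj4 lies at chr12:113428514-113428567 on the minus strand, and Igkj1 and Igkj5 at chr6:70722562-70722599 and chr6:70723886-70723927 on the plus strand.
Ighd4-1: ctaactgggac
Ighd1-1: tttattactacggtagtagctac
Ighj4: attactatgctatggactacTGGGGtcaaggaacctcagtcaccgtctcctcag
Igkj1: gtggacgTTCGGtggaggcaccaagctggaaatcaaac
Igkj5: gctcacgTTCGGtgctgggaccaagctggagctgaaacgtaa

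All 28 D and J segments had 0 counts in both libraries. Their models were 10 to 54 bases long and had an effective length of 0 in both tables, where effective length is the number of positions at which a fragment of the library could start, so no reads could be assigned to them and their 0 gives no upper limit. The motif TGGGG stood in 4 of 4 heavy J segments and in 3.70% of the 40-base ends of the 141373 other M21 transcripts, and TTCGG in 4 of 5 kappa J segments and 0.665% of those ends, searched on the transcript strand. The 4 LV genes, 278 to 359 bases long, also had 0 counts in both libraries.

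The next set holds the last 40 bases of the V segments on which the usage results turn. Capitals mark a Tyr-Cys codon pair (TACTGT or TACTGC), the conserved cysteine near the V end.
Ighv2-6: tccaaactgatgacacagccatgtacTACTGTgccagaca
Ighv2-3: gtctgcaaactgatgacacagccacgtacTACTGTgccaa
Igkv3-4: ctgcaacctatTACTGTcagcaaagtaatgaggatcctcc
Igkv3-5: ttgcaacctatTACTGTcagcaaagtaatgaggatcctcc
Igkv4-59: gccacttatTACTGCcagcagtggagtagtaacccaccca
Igkv4-68: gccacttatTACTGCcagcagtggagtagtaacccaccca

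Ighv2-6 (chr12:113716670-113717103) and Ighv2-3 (chr12:113611187-113611617) lie on the minus strand. Igkv3-4 (chr6:70671788-70672377) and Igkv3-5 (chr6:70663275-70663895) lie on the plus strand, and Igkv4-59 (chr6:69438218-69438757) and Igkv4-68 (chr6:69304834-69305405) on the minus strand. The ends of Igkv4-59 and Igkv4-68 were equal at 40 of 40 positions and those of Igkv3-4 and Igkv3-5 at 39 of 40. Either of the Tyr-Cys motifs, or the same letters with TTC (Phe) in place of TAC, stood in the 40-base end of 192 of 213 V segments (90.1%) and of 4.74% of the other M21 transcripts. Among T cell receptor V transcripts the share was 149 of 194 (76.8%), so the motifs are not particular to immunoglobulin. These motifs were chosen after the sequences had been seen. The M21 models of Igkv3-4, Igkv3-5, Igkv4-59 and Igkv4-68 were longer than those in the tables.

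Likeness between V segments was high over their whole length. Among the 25-base words of a segment, a median of 53.3% over heavy V and 57.2% over kappa V segments also occurred in another gene of M21, with 90.7% for Igkv4-59 and 83.2% for Igkv3-5. The nearest relative of Ighv2-6 was Ighv2-6-8, with 95.3% identity over 342 bases. A read in a shared stretch can belong to more than one segment, so the value of a single V segment is uncertain while its family sum is less so. Reads over a V-D-J junction have no whole counterpart among germline models, and the part of this in the V counts was not tested.

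Immunoglobulin RNA took 0.258% ± 0.114 (SD, n = 2) of all expected counts, which are estimated fragment numbers and need not be whole. The libraries held 23575315 and 22541765 expected counts, and the share was 0.177% in replicate 1 and 0.338% in replicate 2. In each library the C genes made up nearly all of it, with 40675 and 75125 counts against 1128 and 1102 for all V segments. Of the 255 segments, 113 had 0 counts in both libraries, 86 had counts in both, 29 had counts only in replicate 1 and 27 only in replicate 2. A level of 1 TPM or more in both libraries was reached by 53 segments (20.8%), 9 of them C and 44 V. The share over all 43346 rows was 21.8%. A count of 3, the upper limit that a count of 0 allows, corresponds to a median of 0.695 TPM for heavy V segments in replicate 1 and 0.718 in replicate 2, so a V segment listed at 0 may lie close to the minimum of 1 TPM.

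Ighm (ENSMUSG00000076617.5, chr12:113418558-113422730, minus strand), the IgM heavy chain, had the highest level of the C genes. It reached 1151.61 TPM from 31654 counts in replicate 1 and 2317.28 TPM from 62759 counts in replicate 2, and made up 76.0% and 86.4% of the TPM of the 8 heavy C genes (mean 81.2% ± 7.30). Ighg1, an IgG heavy chain, followed with 214.24 and 195.27 TPM. The order below these was not the same in the libraries. Ighg3 had 31.56 and 93.30 TPM, Ighg2b 60.36 and 20.49, and Ighg2c 5.86 and 12.37. Igha, the IgA heavy chain, had 32.42 and 30.45 TPM, and Ighd, the IgD heavy chain that shares its primary transcript with Ighm, 18.21 and 13.25. Together the 4 IgG genes took 20.6% of heavy C TPM in replicate 1 and 12.0% in replicate 2. Ighe, the IgE heavy chain, was under 1 TPM with 1 and 7 counts.

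Igkc (ENSMUSG00000076609.1, chr6:70726435-70726966, plus strand), the only kappa C gene, had 374.56 TPM from 1410 counts in replicate 1 and 1411.24 TPM from 5114 counts in replicate 2. The lambda gene Iglc2 (ENSMUSG00000076937.2, chr16:19198396-19200351, minus strand) had 53.02 and 20.99 TPM from 496 and 194 counts. Kappa therefore made up 87.6% and 98.5% of the light-chain C TPM (mean 93.1% ± 7.73). By counts, which are not per length, the share was 74.0% (exact Clopper-Pearson 95% interval 71.9 to 75.9) and 96.3% (95.8 to 96.8). The intervals here and below cover counting error only. The other lambda C genes were not analysed here, and 24.7% of the words of Iglc2 also occur in another gene, so the lambda side of the share is uncertain. The Igkc model was 323 bases in the tables and 532 bases in M21. Light-chain C TPM stood at 0.282 of heavy-chain C TPM in replicate 1 and 0.534 in replicate 2.

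**Figure D1:**
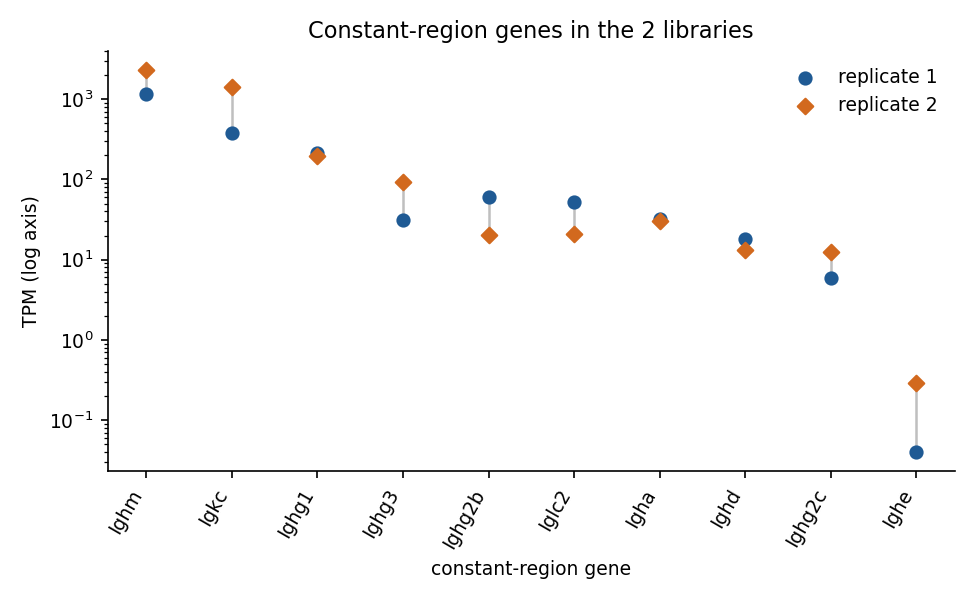
TPM of the 10 constant genes (log axis) in replicate 1 (circles) and replicate 2 (diamonds), ordered by the mean, with a line joining the libraries. Ighm and Igkc are the highest in both libraries, and Ighg1 (214.24 and 195.27 TPM) and Igha (32.42 and 30.45 TPM) lie close together while Igkc and Ighg3 lie apart.

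The IgG genes differ enough in sequence for most reads to be placed. Shared words were 20.4% for Ighg2c, 11.9% for Ighg2b, 11.5% for Ighg3 and 2.88% for Ighg1, against 0% for Ighm, Igkc and Igha. Ighg2b and Ighg2c are 87.8% identical over 1104 aligned bases, and their counts were not whole (1172.69 and 113.31 in replicate 1), which shows that reads were divided between them.

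Heavy-chain RNA ends in a form for secretion or, through downstream exons, in a form with a membrane anchor. Because these ends carry the comparison of the forms, the last coding bases of both Ighm transcripts are given, with the bases found only in that form in capitals. The transcript Ighm-201 (chr12:113420741-113422730) reads on from the last shared exon. Ighm-202 (chr12:113418558-113422730, the span of the gene) continues in the membrane exons.
Ighm-201: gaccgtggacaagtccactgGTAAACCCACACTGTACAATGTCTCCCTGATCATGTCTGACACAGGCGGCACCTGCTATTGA
Ighm-202: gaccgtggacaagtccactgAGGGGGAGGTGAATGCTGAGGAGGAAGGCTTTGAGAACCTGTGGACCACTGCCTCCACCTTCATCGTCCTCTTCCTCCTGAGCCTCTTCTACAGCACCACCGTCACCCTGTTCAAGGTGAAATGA

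The secreted form of Ighm was the larger in both libraries. In the deposited percent of each transcript in its gene, Ighm-201 took 84.94% in replicate 1 and 94.34% in replicate 2, and the membrane form Ighm-202 took 15.06% and 5.66%. Per length, the secreted form had 978.17 and 2186.01 TPM and the membrane form 173.44 and 131.26 TPM. By counts the membrane form was 16.9% (exact 95% interval 16.5 to 17.4) and 6.47% (6.28 to 6.66) of Ighm. The forms share 1305 bases, and their split rests on the reads over 62 and 125 coding bases of their own and over their 3′ ends. Membrane forms of the switched isotypes, where a separate model existed, were a far smaller part. Ighg3 and Ighe had a single model, so their forms could not be told apart. Ighg1-202 took 0.31% and 0.30%, Ighg2b-202 0.25% and 0.83%, Igha-202 0.26% and 1.02%, and Ighg2c-201 0% in both libraries.

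The libraries were set against each other by the ratio of their counts (replicate 2 over replicate 1, log2, after TMM scaling, which removes differences in library composition). A gene with 20 or more counts over both libraries was called higher in one where the exact 95% counting interval lay wholly beyond 2-fold. Over all rows tested, 9.17% were higher in replicate 2 and 14.9% higher in replicate 1. Of 50 segments tested, 10 (20%) were higher in replicate 2 and 3 (6%) higher in replicate 1, and their median log2 ratio was 0.52 against -0.04 over the 12547 genes tested. The interval holds counting error only, and with 1 library on each side it compares these libraries and no condition. Without the scaling for composition, by total counts, all ratios fall by 0.43 on the log2 scale, and 7 segments were higher in each library. The median over all genes tested was then -0.47. The shares over all genes were computed with TMM scaling only. Counts of calls under other scalings, here and below, therefore have no such share beside them.

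Among the C genes, Igkc (log2 ratio 2.35, interval 2.26 to 2.44), Ighg3 (2.05, interval 1.91 to 2.19), Ighg2c (1.56, interval 1.24 to 1.90) and Ighm (1.48, interval 1.459 to 1.498) were higher in replicate 2. Under total-count scaling Ighg2c was no longer called. Reads were divided between Ighg2c and Ighg2b, and the intervals of these 2 genes do not cover that division. Ighg1 (0.35), Igha (0.41) and Ighd (0.03) did not meet the criterion. Ighg2b (-1.06, interval -1.23 to -0.90) and Iglc2 (-0.86, interval -1.11 to -0.62) lay on the other side but not wholly beyond 2-fold, and both were called higher in replicate 1 under total-count scaling. Levels in bulk RNA do not tell more cells of a type from more RNA per cell.

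Summed over all chains, V segments did not follow the C genes. Their level was 261.21 TPM in replicate 1 and 261.18 in replicate 2, while the C genes had 1941.88 and 4114.93 TPM. TPM carries no TMM scaling, so a comparison of TPM between the libraries is not on the scale of the log2 ratios above. By chain, the heavy V sum was 90.41 and 59.38 TPM, while the heavy C sum was 1514.30 and 2682.70 TPM. Kappa V and Igkc were both higher in replicate 2, and lambda V and Iglc2 both lower. Heavy V TPM was 5.97% of heavy C TPM in replicate 1 and 2.21% in replicate 2. For kappa the V sum of 150.32 and 188.40 TPM was 40.1% and 13.4% of Igkc. The 3 lambda V segments, with 20.48 and 13.40 TPM in sum, stood at 38.6% and 63.8% of Iglc2. So V segments lay below the C genes for each chain, and farthest below for heavy chains. The cause of the gap was not tested.

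Over all V segments, levels agreed loosely between the libraries. Across the 213 segments, the log2(TPM + 1) values of the libraries had a Pearson r of 0.61 and the TPM a Spearman rho of 0.63, as a description across segments that share their library and are not independent. Over heavy V segments alone r was 0.53 (n = 113), and over kappa V segments 0.57 (n = 97). These values include segments without counts in either library, 81 of the 213. Over the 67 V segments with 10 or more counts over both libraries r was -0.10. That minimum on the summed counts keeps segments high in a single library and drops those low in both. Its part in the lower r was not tested, so no conclusion is drawn from this value on the agreement of the more counted segments. Of the 10 heavy V segments with the most counts in each library 5 were shared, and of the 10 kappa V segments 4.

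**Figure D2:**
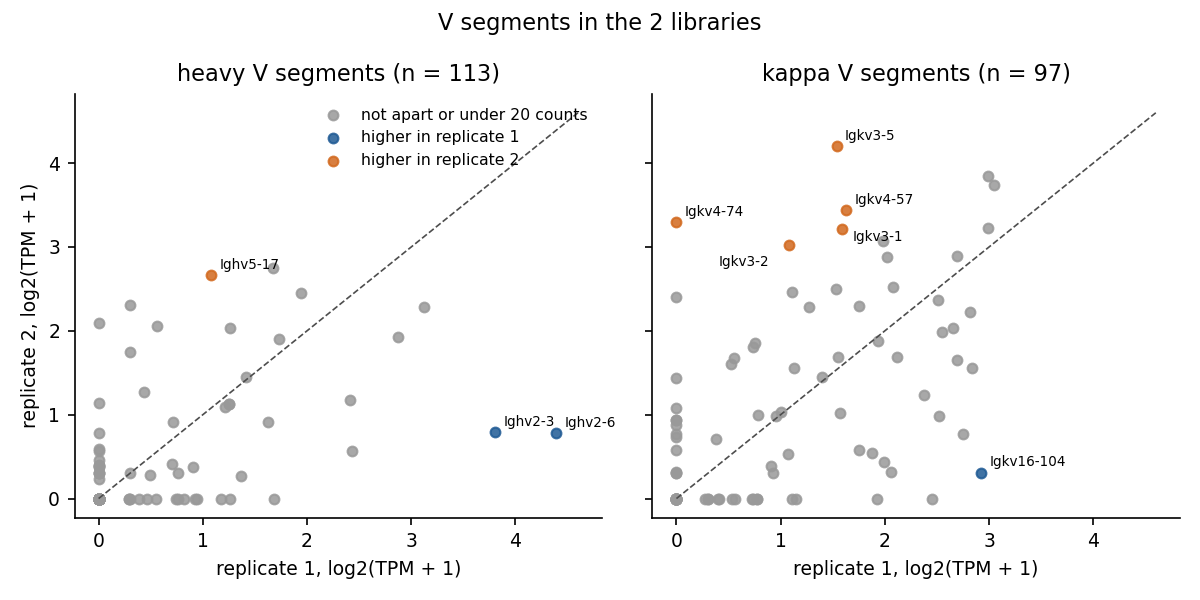
Level of each heavy (left, n = 113) and kappa (right, n = 97) V segment as log2(TPM + 1), with replicate 1 on the x axis and replicate 2 on the y axis. The dashed line is equality, and coloured points are segments higher in a library by more than 2-fold beyond counting error. Among these, Ighv2-6 has the highest level in replicate 1 (19.98 TPM) and Igkv3-5 in replicate 2 (17.41 TPM).

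The heavy V segment with the highest mean level was Ighv2-6, which had 19.98 TPM from 85.86 counts in replicate 1 and 0.72 TPM from 3 counts in replicate 2 (log2 ratio -4.14, interval -6.66 to -2.75). Ighv2-3 showed the same split, with 13.01 TPM from 55.14 counts and 0.73 TPM from 3 counts (-3.50, interval -6.03 to -2.08). The counts of Ighv2-6 and Ighv2-3 in replicate 1 were not whole, so reads were divided among similar segments. The calls of these segments are therefore not independent, and the intervals do not cover the division. Both were thus close to 0 in replicate 2 alone. Ighv5-17 was higher in replicate 2, with 1.11 and 5.33 TPM from 6 and 28 counts (2.62, interval 1.41 to 4.28), and was no longer called under total-count scaling. The remaining leaders did not meet the criterion. Ighv2-9 had 7.72 and 3.87 TPM, Ighv6-3 6.34 and 2.80, Ighv2-5 2.18 and 5.74, Ighv14-3 2.85 and 4.48, and Ighv11-2 4.31 and 1.26. Of 113 heavy V segments, 12 had 1 TPM or more in both libraries and 58 had no counts in either.

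Kappa V use was spread over more segments. Igkv3-4 had 6.93 TPM from 31 counts in replicate 1 and 13.37 TPM from 58 counts in replicate 2, and Igkv3-7 had 7.29 and 12.39 TPM, and neither met the criterion. Igkv3-5 had 1.90 TPM from 8.50 counts and 17.41 TPM from 75.52 counts (log2 ratio 3.66, interval 2.688 to 5.002), although its end is nearly that of Igkv3-4. The nearest relative of Igkv3-5 over the whole length was Igkv3-10, with 97.8% identity and 8.50 and 9.48 counts. Counts of Igkv3-5 and Igkv3-10 were not whole, so reads were divided among similar segments. The interval does not cover that division, and its part in the ratio was not tested. Igkv4-57 had 2.09 and 9.86 TPM (2.62, interval 1.62 to 3.91), Igkv3-1 2.01 and 8.30 TPM (2.43, interval 1.41 to 3.73) and Igkv3-2 1.12 and 7.15 TPM (3.01, interval 1.75 to 4.84). Igkv3-1 was no longer called under total-count scaling. Igkv4-74 had 0 counts in replicate 1 and 38 counts (8.80 TPM) in replicate 2, and the lower limit of its log2 ratio was 3.79. Of the 5 kappa V segments higher in replicate 2, 3 belong to the family Igkv3 and 2 to Igkv4. Igkv16-104 went the other way, with 6.58 TPM from 28 counts and 0.24 TPM from 1 count (-3.76, interval -9.67 to -1.72). Igkv4-59 (6.97 and 8.35 TPM), Igkv1-110 (5.47 and 6.40 TPM) and Igkv4-68 (2.95 and 7.37 TPM) did not meet the criterion. Of 97 kappa V segments, 29 had 1 TPM or more in both libraries and 23 had no counts in either.

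All 3 lambda V segments had 1 TPM or more in both libraries, and none met the criterion. Iglv1 had 9.76 and 4.31 TPM, Iglv3 6.29 and 7.15 TPM, and Iglv2 4.43 and 1.94 TPM. Iglv1 and Iglv2 are 97.1% identical, and reads were divided between them (42.13 and 18.87 counts in replicate 1). Iglv3 shares no 25-base word with another gene.

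Evenness was summarised as the effective number of segments, the inverse Simpson index of the counts, which equals the number of segments that would give the same concentration if used equally. It was 11.4 in replicate 1 and 16.6 in replicate 2 for heavy V (mean 14.0 ± 3.65), and 35.6 and 25.4 for kappa V (mean 30.5 ± 7.22). The 5 most counted heavy V segments of each library held 56.4% and 45.1% of heavy V counts, and the 5 most counted kappa V segments 22.4% and 32.6% of kappa V counts. So the heavy V counts were the more concentrated in both libraries, and the libraries stood in opposite order for the chains.

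The family Ighv2, with 9 of the 113 heavy V segments (7.96%), led the heavy chain. It held 49.4% of 411 heavy V counts in replicate 1 (exact 95% interval 44.5 to 54.3) and 26.4% of 273 in replicate 2 (21.2 to 32.0), the difference lying with Ighv2-6 and Ighv2-3. Ighv1 is the largest family, with 53 segments (46.9%), and held 13.4% and 13.2% of the counts, with no segment at 1 TPM or more in both libraries. Ighv5 held 5.60% (interval 3.58 to 8.28) and 17.2% (12.9 to 22.2), Ighv14 6.08% and 13.2%, and Ighv6 7.06% and 10.6%. Only Ighv13 and Ighv16, with 1 segment each, had no counts in either library.

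Among kappa families, Igkv4 held 25.8% of 627 kappa V counts in replicate 1 (exact 95% interval 22.5 to 29.5) and 29.3% of 771 in replicate 2 (26.1 to 32.7), close to its 26.8% of the segments. Igkv3, with 9.28% of the segments, held 17.1% (14.2 to 20.2) and 35.1% (31.8 to 38.6), and 7 of its 9 segments had 1 TPM or more in both libraries. Igkv1 held 16.3% (13.5 to 19.4) and 7.52% (5.76 to 9.62), and Igkv5 8.13% and 1.69%. The families Igkv13 and Igkv18 had no counts in either library.

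**Figure D3:**
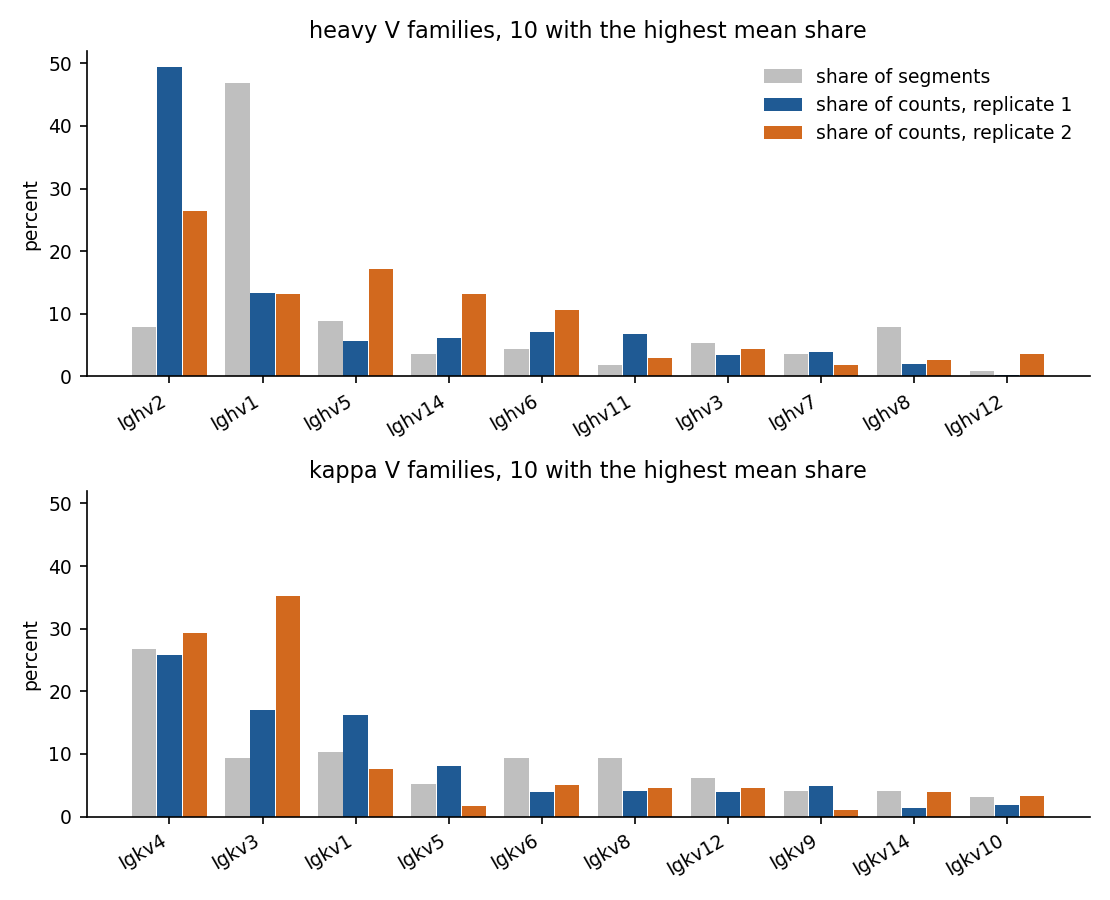
Share of heavy (top) and kappa (bottom) V segments (grey) and of V counts in replicate 1 (blue) and replicate 2 (orange) for the 10 families with the highest mean share of counts, in percent. Ighv2 stands far above its share of segments and Ighv1 far below it in both libraries, and Igkv3 is the family with the widest gap between the kappa bars (17.1% and 35.1%).

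Use followed position along the heavy locus. The heavy V segments lie 149 to 2570 kb from the nearest J segment, and the 57 nearer ones (up to 1182 kb) held 88.1% of heavy V counts in replicate 1 (exact 95% interval 84.5 to 91.0) and 89.7% in replicate 2 (85.5 to 93.1). Of the 12 segments at 1 TPM or more in both libraries, 11 were among these 57. Position and family overlap here, since the Ighv2 segments have a median distance of 287 kb and the Ighv1 segments of 1729 kb. The kappa segments lie 18.4 to 3166 kb from J, and the 49 nearer ones held 50.2% of kappa V counts in replicate 1 (46.3 to 54.2) and 66.9% in replicate 2 (63.5 to 70.2). Of the 29 kappa segments at 1 TPM or more in both, 18 were among the nearer 49. Igkv3 lies closest to J, with a median of 58.7 kb. On the strand of Igkc, 36 of the 97 kappa V segments held 47.5% and 49.3% of the counts, the rest lying inverted in the genome.

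**Figure D4:**
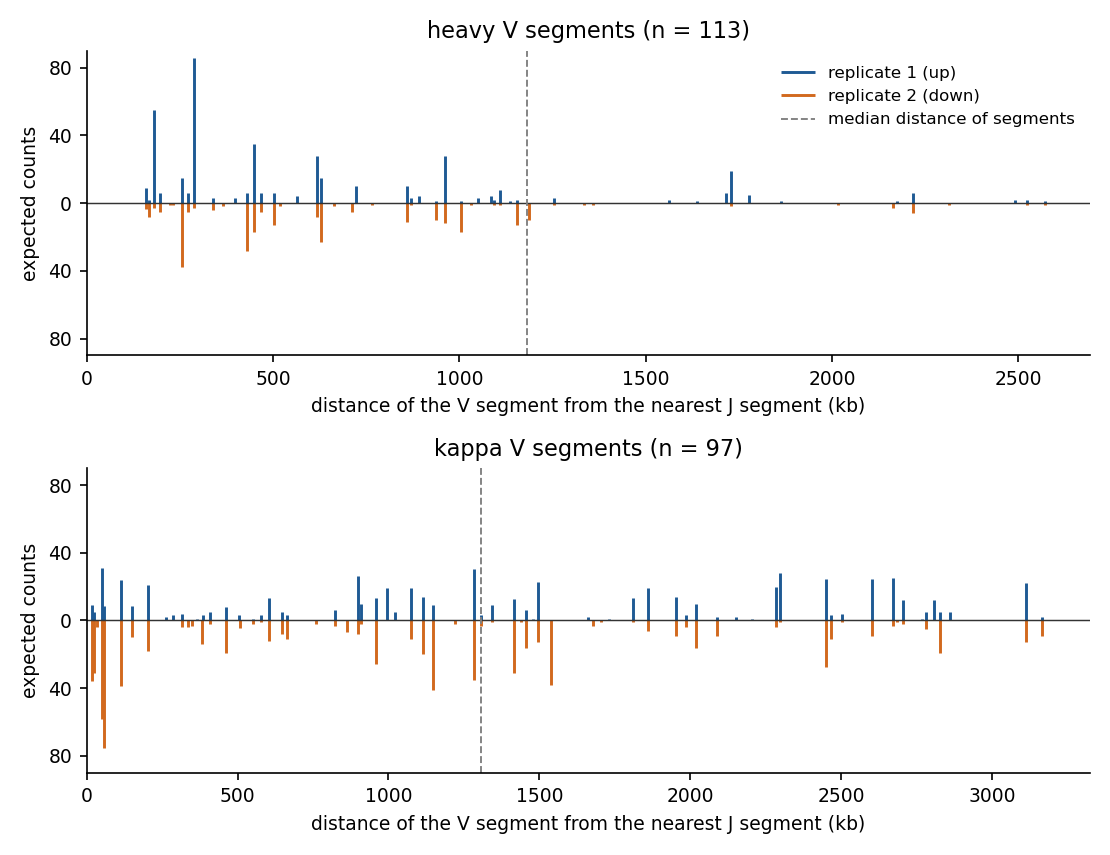
Expected counts of each heavy (top, n = 113) and kappa (bottom, n = 97) V segment against its distance from the nearest J segment in kb, with replicate 1 drawn upward and replicate 2 downward and a dashed line at the median distance. Heavy V counts crowd on the J side of the line in both libraries (88.1% and 89.7%), and kappa V counts reach across the locus.

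Genes that work with the segments were taken from 7 lists of 79 genes, described by counts of members called in each direction. These counts stand beside 9.17% of all genes tested that were higher in replicate 2 and 14.9% higher in replicate 1, both with TMM scaling. All 13 regulators of B cell genes had 1 TPM or more in both libraries, and 2 were higher in replicate 2 (9.17% over all genes) and none in replicate 1 (14.9%). Tcf3, which encodes the E proteins that act on immunoglobulin enhancers, had 1083.56 and 1144.12 TPM, Ikzf1 448.50 and 414.94, Irf8 114.88 and 426.79 (from 6095 and 8034 counts, log2 ratio 0.89), and Pou2af1, the coactivator at octamer sites of V promoters, 129.22 and 215.22. Of these 4, only Pou2af1 met the criterion (log2 ratio 1.23, interval 1.18 to 1.27), and it was no longer called under total-count scaling, which left 1 of the list higher in replicate 2.

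Of the 12 genes of the receptor and surface list, all tested, 7 were higher in replicate 1 (14.9% over all genes) and 1 in replicate 2 (9.17%), with a median log2 ratio of -1.49. The counts were 6 and 1 with DESeq2 size factors and 7 and 0 under total-count scaling. Cd79a, a signalling chain of the B cell receptor, had 436.49 TPM from 11421 counts in replicate 1 and 99.43 TPM from 2599 counts in replicate 2 (log2 ratio -1.64, interval -1.71 to -1.58). Its partner Cd79b had 87.84 and 51.14 TPM and did not meet the criterion. Cr2, a complement receptor, had 48.27 and 3.04 TPM (-2.01), and Ms4a1 (CD20) 3.55 and 0.52 TPM (-2.25, interval -2.88 to -1.72). So replicate 2 held more Ighm and Igkc RNA and less Cd79a, Cr2 and Ms4a1 RNA.

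Genes of the plasma cell list were in part higher in replicate 2. Of 12 genes 11 were tested, 6 were higher in replicate 2 (9.17% over all genes) and none in replicate 1 (14.9%), with a median log2 ratio of 1.19, and 3 remained under total-count scaling, by which Xbp1 and Creld2 were no longer called. Xbp1, a regulator of the secretory pathway, had 36.72 and 60.03 TPM (1.24, interval 1.13 to 1.35), Derl3 26.50 and 64.97 (1.78), and Creld2 29.27 and 59.53 (1.51). Mzb1, a chaperone for heavy chains, had 23.85 and 19.70 TPM, Sdc1 11.50 and 22.75, and Prdm1, the factor that drives plasma cell identity, 3.78 and 4.71, and none of these 3 met the criterion. Jchain, which links IgM and IgA polymers, had 14.57 and 6.57 TPM (-0.79, interval -1.08 to -0.51), not wholly beyond 2-fold.

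Genes of the recombination step were close to 0. Of the list's 8 genes 1, Vpreb3, had 1 TPM or more in both libraries (1.13 and 1.77), and 3 had no counts in either. Rag1 and Rag2, the recombinase, had 0 counts in both, and 3 counts are the upper limit that this allows. Dntt, which adds bases at junctions, had 4 and 0 counts, and the surrogate light chain genes Vpreb1 and Igll1 had 0 and 1, and 1 and 5 counts. Il7r had 0.38 and 0.20 TPM. Of the 10 genes of the class switching and mutation list, 3 were higher in replicate 1 (14.9% over all genes) and none in replicate 2 (9.17%), or 4 and none under total-count scaling, by which Msh6 was called. By the main scaling Ung (34.19 and 29.09 TPM), Msh6 (25.68 and 11.29) and Trp53bp1 (7.05 and 7.01) did not meet the criterion.

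**Figure D5:**
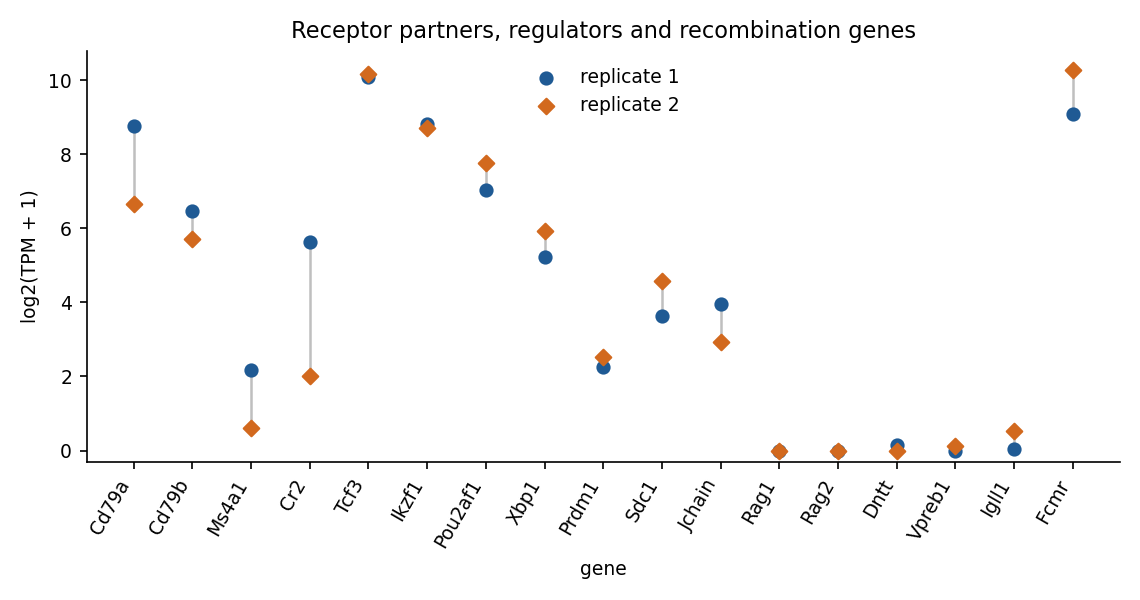
Levels as log2(TPM + 1) of receptor partners, regulators, plasma cell genes, recombination genes and the IgM receptor gene Fcmr in replicate 1 (circles) and replicate 2 (diamonds). Cd79a (436.49 and 99.43 TPM) is lower in replicate 2 while Fcmr (538.20 and 1241.82 TPM) stands higher there, and the recombination genes lie at or near 0.

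Receptors for antibody were led by that for IgM. Fcmr had 538.20 TPM from 5003 counts in replicate 1 and 1241.82 TPM from 11200 counts in replicate 2 (log2 ratio 1.65, interval 1.61 to 1.70). Fcgrt, the neonatal IgG receptor, had 93.01 and 155.44 TPM (1.23, interval 1.17 to 1.30) and was no longer called under total-count scaling. Fcer1g had 4.50 and 8.07 TPM, and Fcgr2b, the inhibitory IgG receptor, 7.43 and 0.91 TPM (-2.24, interval -2.86 to -1.71). Of the 10 genes in this list 7 were tested, 2 were higher in replicate 2 (9.17% over all genes) and 1 in replicate 1 (14.9%). For comparison, the T cell list had 10 of 14 genes at 1 TPM or more in both libraries and none of 12 tested genes was called in either direction. Its leading members were Cd2 (56.36 and 49.47 TPM), Tcf7 (63.64 and 37.59), Cd247 (25.35 and 20.74) and Gata3 (17.78 and 24.70). The summed TPM of the receptor and surface list was 750.77 in replicate 1 and 231.89 in replicate 2, that of the plasma cell list 169.93 and 269.82, and that of the T cell list 237.26 and 207.93. The part of these lists in the segment values was not tested.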

How the data were processed

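Per the readme files, the authors quantified genes and transcripts on mm10 with GENCODE M4; which aligner and quantifier is not stated in these sources. The deposited expected counts, TPM and FPKM, posterior mean counts and TPM, and the authors' percent of each transcript in its gene were used; a table holds 69691 rows, of which 43346 carry an Ensembl identifier. Segment types, symbols, positions and sequences came from GENCODE M21 of the same assembly, matched by identifier without version. A gene counts as present at 1 TPM or more. Ratios used counts rounded to whole numbers, a prior count of 0.5, TMM scaling by edgeR 4.0.16 in R 4.3.3 (factor 0.712 for replicate 2 over 1) and exact Clopper-Pearson 95% intervals over all genes with 20 or more counts; no p-value was computed. The procedure was tested on simulated data with counting error alone, no reads shared between genes, and changes planted only in genes of higher counts. The simulation therefore does not cover segments with few counts or with shared reads. DESeq2 1.42.0 gave other size factors. Words of 25 bases and global alignments (Biopython 1.88) gave likeness between segments. Other tools were Python 3.11.15, numpy 2.4.6, pandas 2.3.3, scipy 1.17.1 and matplotlib 3.10.9. No genome or promoter sequence of the segments was used here.

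Members and gene lists were chosen with earlier results of these data known. Named were all C and lambda genes, the 8 heavy and 8 kappa V segments with the highest mean TPM, the 4 called segments with the largest ratio in each direction (3 in replicate 1), the 4 most abundant genes of each list, the sort markers, and Cd79a, Cd79b, Ms4a1, Rag1, Rag2, Dntt, Vpreb1, Igll1, Jchain, Xbp1, Prdm1 and Sdc1. Some genes that the rule names are left out of the text. Alternatives were other minimums, FPKM, posterior means, other scalings, pseudocounts and each library alone.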

Additional observations from a re-analysis of the deposited data

How the results depend on the processing

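No paired analysis was possible because there is 1 group. The count of segments at 1 TPM or more in both libraries (53) was 33 at a minimum of 2 TPM, 14 at 5 TPM and 29 with 10 or more counts in both, and 63 at 0.5 TPM. The kappa share of light-chain C genes was 85.2% by expected counts, which are not per length. The 10 segments higher in replicate 2 became 6 with 50 or more counts, all of them among the 10, where 21 segments were tested. The 3 segments higher in replicate 1 became 7 under total-count scaling and 5 without a count minimum, which include the 3. The V correlation was 0.53 with a pseudocount of 5 and -0.10 over the 67 V segments with 10 or more counts over both libraries. That filter keeps segments high in a single library and drops those low in both, and its part in the lower value was not tested. The other alternatives, apart from leaving out a library, moved counts by 1.5 times or less, values by less than 1 SD and the correlation by less than 0.05, limits set late.

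From either library alone, the count of segments at 1 TPM or more was 67 to 73 and the immunoglobulin share 0.177% to 0.338%. The kappa share was 87.6% to 98.5%, the Ighm share 76.0% to 86.4%, the Ighv2 share 26.4% to 49.4% and the Igkv4 share 25.8% to 29.3%. The effective numbers ranged from 25.4 to 35.6 for kappa V and from 11.4 to 16.6 for heavy V. With 1128 and 1102 V counts in all, depth limits what can be said of single V segments.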

Other observations

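T cell receptor segments and immunoglobulin V pseudogenes were measured in the same tables. The 7 T cell receptor constant genes held 853 counts in replicate 1 and 308 in replicate 2, and 3 of them had 1 TPM or more in both libraries. The 132 T cell receptor V segments held 31 and 23 counts, 0.235 and 0.174 counts per gene, and none had 1 TPM or more in both. Immunoglobulin V segments held 5.30 and 5.17 counts per gene, and 77 immunoglobulin V pseudogenes 0.156 and 0.0779. The 70 T cell receptor D and J segments had 0 counts.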
